A study of Rattus norvegicus with 12 samples.

Results

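The 41 collagen chain genes measured in this experiment were those whose probe sets carried a single platform symbol of the form Col, a type number, a and a chain number. They were represented by 58 of 31042 probe sets and made up 41 of the 14217 genes with a named probe set, and 27 of them had 1 probe set while 14 had several, which were averaged. The rule used symbols and no measured value. Every one of the 41 was tested and none was lost to a filter, since no filter on low signal was applied. Of the collagen genes in the RefSeq rat annotation, Col28a1, Col4a3 and Col6a4 had no probe set named for them and were not analysed here.

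Affymetrix rat arrays were hybridized with bone RNA of female Sprague-Dawley rats in 4 groups with 3 arrays each, to ask how ovariectomy and blueberry (BB) feeding alter bone gene expression. Sham rats had a sham operation and the casein control diet. OVX rats were ovariectomized and had the same diet, LTBB OVX rats were ovariectomized and fed BB from PND 20 until sacrifice, and STBB OVX rats were ovariectomized and fed BB from PND 20 to PND 34 and then the control diet. The BB diets contained 10% BB, surgery was on PND 60 and all rats were killed on PND 81. Each array held pooled RNA of 2 to 3 rats, so the spread between arrays is that between pools and not between single rats. The sample labels name the femur and the methods the right tibia. The values are log2 signals centred by the authors, with 0 for every probe set at the median of its 12 values, which lies close to the 9 arrays of ovariectomized rats. They therefore give differences between arrays, and neither the level of a gene nor the presence of a tissue's markers can be read from them.

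Collagens are trimers of chains wound into a helix and are the main proteins of bone and cartilage matrix. Fibrillar collagens form the fibrils that mineralize in bone, the cartilage types belong to the growth plate and joint surface, FACIT collagens sit on the surface of fibrils, network collagens form beaded filaments or hexagonal sheets, basement membrane types underlie endothelium and surround muscle fibres and nerves, and transmembrane types are anchored in the cell membrane. Chains are hydroxylated and folded in the endoplasmic reticulum with the help of dedicated enzymes and chaperones, trimmed outside the cell and crosslinked by lysyl oxidases.

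The promoter stretches below belong to chains on which the results turn: Col10a1, the chain with the largest change, Col9a1 and Col9a2, partners in type IX collagen whose changes were unequal, and Col4a1 with Col4a2, which are transcribed away from each other from neighbouring starts. The sequences are RefSeq's for the rat assembly GRCr8, 5′ to 3′, each ending just before a transcription start or, for the Col4a1 and Col4a2 pair, filling the bases between both starts. Capitals mark a TATAAA match in Col10a1 and, on the opposite strand, a GGGCGG match in the last stretch.
Col10a1 (chr20:39737416-39737535, plus strand): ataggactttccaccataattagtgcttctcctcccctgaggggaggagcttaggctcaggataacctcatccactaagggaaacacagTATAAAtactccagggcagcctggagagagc
Col9a1 (chr9:34081244-34081363, plus strand): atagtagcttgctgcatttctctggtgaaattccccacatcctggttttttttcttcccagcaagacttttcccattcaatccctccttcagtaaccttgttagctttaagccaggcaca
Col9a2 (chr5:139892678-139892797, plus strand): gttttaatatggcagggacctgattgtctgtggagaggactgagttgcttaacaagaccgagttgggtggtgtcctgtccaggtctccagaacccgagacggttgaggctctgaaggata
Col4a1 and Col4a2 (chr16:84885521-84885596, plus strand): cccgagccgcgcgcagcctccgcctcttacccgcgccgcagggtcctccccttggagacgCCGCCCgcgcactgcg
The starts of Col4a1 and Col4a2 lie 77 bases apart, and 78.9% of the bases between them are G or C. The starts of Col4a5 and Col4a6, arranged the same way, are 1415 bases apart.

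A promoter sequence was found for 32 of the 41 chain genes, and the 250 bases before the start were searched on both strands for the letters of a TATA box, a CCAAT box and a GC box. Matches to different motifs may share end bases and were counted separately. The letters TATAAA were present for 4 of the 32 genes (Col10a1, Col13a1, Col17a1 and Col1a2), or 12.5%, against 12.9% of all 33469 promoters. CCAAT was present for 9 (28.1%, against 34% of all promoters) and GGGCGG for 18 (56.2%, against 30.5%). A chain gene was counted if any promoter listed for it matched, while the share of all promoters counts each promoter singly. A gene with several promoters had more chances to match, so these shares are unlike measures. A match describes letters and does not show that a factor binds.

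In OVX bone 28 of the 41 collagen chains rose and 6 fell relative to sham by limma at an adjusted p under 0.05, and 7 did not pass, with a median log2 fold change of 1.33. Over all 14217 genes 30.3% were called higher and 28.6% lower, 58.9% in all, with a median of 0.0047. The sham arrays stood apart from all others, with an SD of an array's values of 0.781 to 0.824 against 0.136 to 0.194 in the others. The first principal component over all genes held 88.7% of the variance. For 27 chains all 9 arrays of ovariectomized rats lay above all sham arrays, for 5 all lay below and for 9 the ranges overlapped, against 27.1% of all genes above and 26% below. In such bulk RNA fewer cells of a type and less RNA per cell cannot be told apart. Other markers moved between the same groups. All 26 skeletal muscle markers fell in OVX bone (their array mean was 3.42 to 4.19 in sham and -2.20 to -1.03 in OVX), as did 9 of 9 erythroid markers (2.50 to 2.83 in sham, -0.27 to 0.098 in OVX) and 4 of 4 neutrophil markers (2.63 to 3.09 in sham, -0.362 to 0.0080 in OVX), and their part in the collagen changes was not tested.

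**Figure D1:**
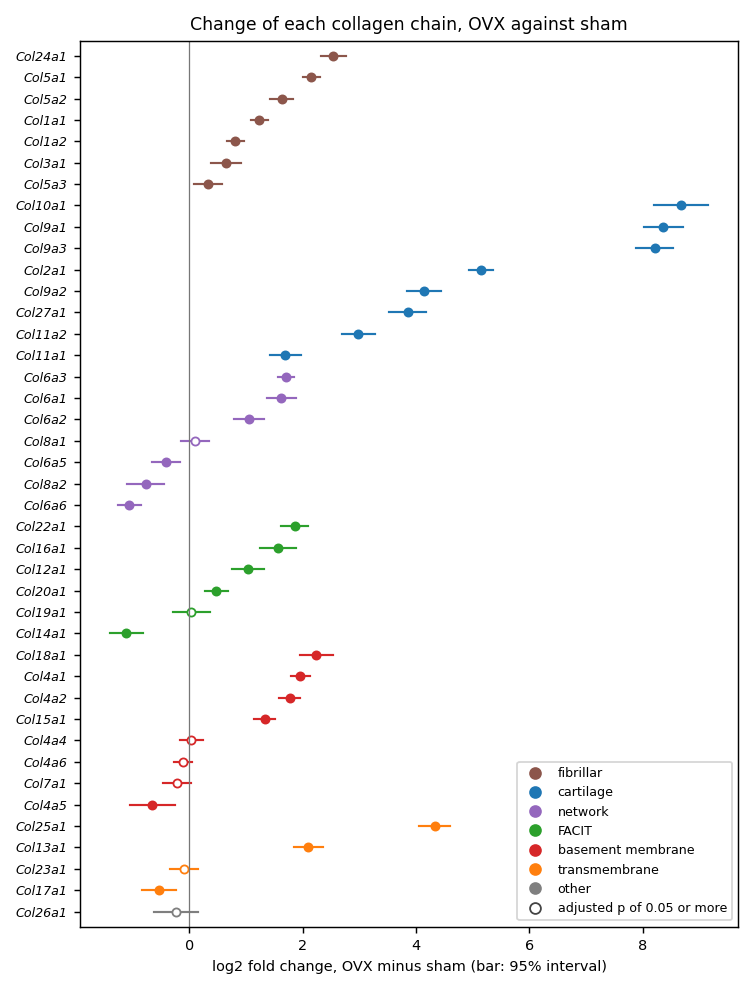
Log2 fold change of each of the 41 chains between OVX and sham (horizontal axis, OVX minus sham) with its 95% interval, coloured and ordered by collagen type, open circles marking chains that did not pass by limma. All 8 cartilage and all 7 fibrillar chains lie above 0, while the falls are spread over the network, FACIT, basement membrane and transmembrane types.

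All 8 cartilage chains rose in OVX bone, with a median log2 fold change of 4.64, against 30.3% of all genes called higher. Col10a1, the type X chain of hypertrophic chondrocytes, had centred log2 values of -9.23, -8.31 and -8.17 in sham, 0.33, 0.0035 and -0.0035 in OVX, -0.023, 0.23 and -0.087 in LTBB OVX and 0.50, 0.22 and 0.20 in STBB OVX. The sham arrays lay 8.08 log2 units or more below every other array, and the change between OVX and sham was 8.68 (SE 0.22, adjusted p = 1.41e-11 by limma, n = 3 pools per group), a 411-fold difference, which became 4.38 on the log2 scale (20.9-fold) after the arrays were quantile normalized again. Col9a1, a chain of the type IX molecules that coat cartilage fibrils, read -8.32, -7.99 and -8.43 in sham and 0.39, -0.070 and 0.042 in OVX. Its partner Col9a2 read -3.97, -4.12 and -3.92 in sham and 0.38, -0.16 and 0.20 in OVX, so the groups did not overlap for either chain. Col9a1 changed by 8.36 (SE 0.16), Col9a3, the remaining type IX chain, by 8.21 (SE 0.15), and Col9a2 by 4.14 (SE 0.14), values that became 4.32, 4.02 and 2.34 after that normalization. Col2a1, the main fibrillar chain of cartilage, rose by 5.14 (SE 0.096), Col27a1 of growth plate cartilage by 3.86 (SE 0.15), and Col11a2, which takes part in the thin cartilage fibrils, by 2.99 (SE 0.13). The smallest rise of the type was that of Col11a1, with sham values of -1.62, -1.56 and -2.01 and OVX values of -0.11, 0.14 and -0.12, a change of 1.70 (SE 0.12, adjusted p = 8.1e-08 by limma).

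Chondrocyte genes other than collagens moved beside them. Of 10 chondrocyte markers 7 rose, 1 fell and 2 did not pass, with a median of 2.68. Among all genes 30.3% were called higher and 28.6% lower. Cnmd (chondromodulin) changed by 7.02 (SE 0.13), Hapln1, which links aggrecan to hyaluronan, by 6.40 (SE 0.18), and Comp, an oligomeric cartilage matrix protein, by 5.09 (SE 0.16), while Sox6, a transcription factor of chondrocytes that erythroid cells also use, fell by 2.62 on the log2 scale. The array mean of the list was -2.68 to -2.64 in sham and -0.090 to 0.322 in OVX. The share of cartilage RNA in these pools was not measured, and its part in the chain values was not tested.

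All 7 fibrillar chains outside the cartilage types rose, with a median of 1.24, against 30.3% of all genes called higher. Col1a1 and Col1a2 encode the chains of type I collagen, the bulk of bone matrix. Col1a1 had values of -1.25, -1.09 and -1.35 in sham, and the 9 arrays of ovariectomized rats lay between -0.0058 and 0.018. Col1a2 had values of -0.74, -0.72 and -0.95 in sham and -0.014 to 0.036 in the other 9 arrays. Neither chain overlapped between sham and any other group, and OVX differed from sham by 1.24 (SE 0.068, adjusted p = 5.93e-09) for Col1a1, a 2.36-fold difference, and by 0.81 (SE 0.068, adjusted p = 2.92e-07) for Col1a2, a 1.76-fold difference, both by limma. After quantile normalization these were 0.48 (1.39-fold) and 0.34 (1.26-fold).

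The spread of the type I chains across the ovariectomized arrays was small. The SD over those 9 arrays was 0.00919 for Col1a1, the lowest of all 14217 genes, and 0.0176 for Col1a2, the 3rd lowest. Over the sham arrays it was 0.132 and 0.129, and the cause of the narrow spread was not tested.

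Among the other fibrillar chains the largest change was that of Col24a1, a chain of developing bone, whose values were -2.62, -2.35 and -2.77 in sham and 0.013, 0.0033 and -0.12 in OVX, a change of 2.54 (SE 0.10, adjusted p = 3.78e-10 by limma). Col5a1 and Col5a2, whose type V molecules start fibrils and set their width, rose by 2.15 (SE 0.069) and 1.63 (SE 0.096). Col3a1, the type III chain of soft and healing connective tissue, had -0.59, -0.65 and -0.45 in sham and -0.12, 0.33 and 0.065 in OVX, a change of 0.65 (SE 0.12, adjusted p = 4.96e-04 by limma). The smallest change was that of Col5a3, a minor type V chain, at -0.34, -0.23 and -0.16 in sham and 0.058, 0.25 and -0.040 in OVX, or 0.33 (SE 0.11, adjusted p = 0.0223 by limma). The call for Col5a3 was lost by limma without sham pool 1 (0.28, adjusted p = 0.076) and without OVX pool 2 (0.25, adjusted p = 0.0966).

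Markers of bone cells moved beside the fibrillar chains. Of 10 osteoblast and osteocyte markers 9 rose, none fell and Sost, the osteocyte inhibitor of Wnt signalling, was at 0.051 (SE 0.083, adjusted p = 0.627 by limma), with a median of 2.63 for the list. Phex, an osteocyte endopeptidase of phosphate balance, changed by 4.27 (SE 0.19), and Spp1 (osteopontin) by 3.57 (SE 0.18). All 6 osteoclast markers rose as well, with a median of 1.60. Among all genes 30.3% were called higher and 28.6% lower. The part of these bone cell markers in the fibrillar chain values was not tested.

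**Figure D2:**
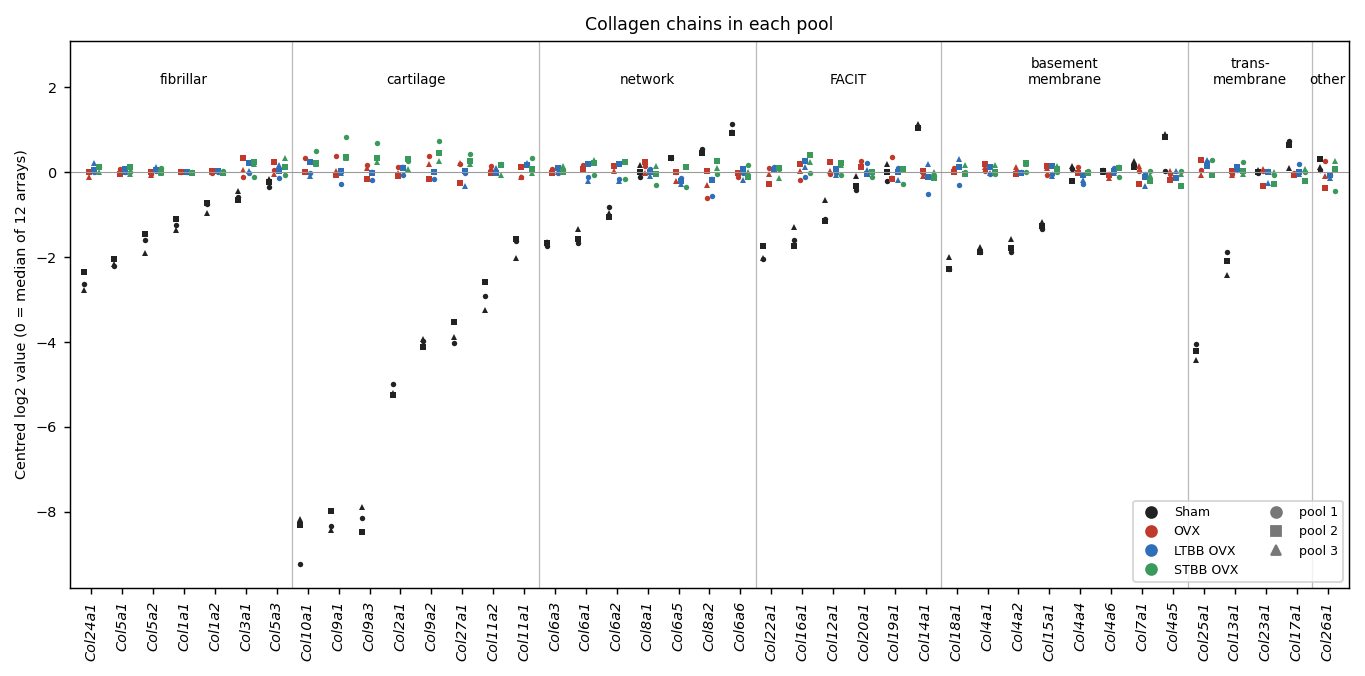
Centred log2 value (vertical axis, 0 = median of the 12 arrays) of each of the 41 chains (horizontal axis, by collagen type) in every array, the colour giving the group and the symbol the pool number. The black sham points stand apart, with Col10a1, Col9a1 and Col9a3 lowest at -9.23 to -7.88, and Col14a1 and Col6a6 high in sham at 0.93 to 1.14.

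The 7 network chains split into 3 that rose, 3 that fell and 1 that did not pass, with a median of 0.10. The share called was 85.7%, against 58.9% of all genes. The common chains of type VI collagen, which forms beaded filaments around cells, rose: Col6a3 by 1.71 (SE 0.066, adjusted p = 3.01e-10 by limma), with values of -1.74, -1.66 and -1.65 in sham and 0.075, -0.012 and -0.0011 in OVX, Col6a1 by 1.63 (SE 0.12) and Col6a2 by 1.06 (SE 0.12). The alternative type VI chains went the other way. Col6a6 had values of 1.14, 0.93 and 0.95 in sham and -0.11, -0.012 and -0.018 in OVX, and fell by 1.05 on the log2 scale (SE 0.092, adjusted p = 4.59e-07 by limma). Col6a5 had 0.344, 0.337 and 0.338 in sham and -0.0010, 0.0010 and -0.20 in OVX, and fell by 0.41 (SE 0.11, adjusted p = 0.00758 by limma). In the rat assembly Col6a6 and Col6a5 are neighbouring genes, as are Col6a1 and Col6a2.

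Type VIII collagen, a short-chain collagen of vessel wall and cornea, gave unequal values for its chains. Col8a2 had 0.54, 0.45 and 0.45 in sham and -0.61, 0.035 and -0.30 in OVX, and fell by 0.77 (SE 0.15, adjusted p = 5.61e-04 by limma). Col8a1 overlapped between the groups, with -0.10, -0.0023 and 0.16 in sham and 0.14, 0.25 and -0.015 in OVX, a difference of 0.10 (SE 0.11, adjusted p = 0.456 by limma).

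Of the 6 FACIT chains 4 rose, 1 fell and 1 did not pass, with a median of 0.76. The share called was 83.3%, against 58.9% of all genes. The largest rise was that of Col22a1, a chain known from tissue junctions such as that of muscle and tendon, whose values were -2.04, -1.74 and -2.02 in sham and 0.095, -0.27 and -0.047 in OVX, a change of 1.86 (SE 0.11, adjusted p = 8.99e-09 by limma). Col16a1 rose by 1.56 (SE 0.15), Col12a1, a fibril-associated chain of tendon and periosteum, by 1.04 (SE 0.13), and Col20a1 by 0.48 (SE 0.093). Col14a1, a FACIT chain of tendon, muscle and skin that regulates fibril growth, fell. Its values were 1.08, 1.04 and 1.13 in sham, -0.022, 0.043 and -0.097 in OVX, -0.51, -0.10 and 0.20 in LTBB OVX and -0.091, -0.14 and 0.019 in STBB OVX, all below sham, and the change between OVX and sham was -1.11 (SE 0.13, adjusted p = 9.76e-06 by limma). Col19a1 overlapped, with -0.22, -0.0024 and 0.19 in sham and 0.36, -0.16 and -0.13 in OVX, a difference of 0.036 (SE 0.15, adjusted p = 0.859 by limma). Col19a1 neighbours Col9a1 in the genome, where the change was 8.36.

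Tendon and muscle genes moved between the same groups as these falls, while adipocyte genes were called about as often as all genes. Of 5 tendon and ligament markers 3 rose and 2 fell, against 30.3% of all genes called higher and 28.6% lower. Tnmd (tenomodulin), a marker of mature tendon cells, fell by 2.53 (SE 0.25), and Tnc, the tenascin C of tendon and perichondrium, rose by 2.81 (SE 0.065). Of 7 adipocyte markers 1 rose, 3 fell and 3 did not pass, with a median of -0.29, so 57.1% were called against 58.9% of all genes. Their part in the falls of Col14a1, Col6a6 and Col8a2, like that of the muscle markers, was not tested.

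Of the 8 basement membrane chains 4 rose, 1 fell and 3 did not pass, with a median of 0.69. The share called, 62.5%, was close to the 58.9% of all genes. The largest change was that of Col18a1, the source of the fragment endostatin, with values of -2.29, -2.29 and -2.0 in sham and 0.093, 0.0061 and 0.047 in OVX, a rise of 2.24 (SE 0.13, adjusted p = 1.27e-08 by limma). Col4a1 and Col4a2, the chains of the ubiquitous type IV network, rose by 1.96 (SE 0.079) and 1.77 (SE 0.086), and Col15a1, a chain of vessel and muscle basement membranes, by 1.33 (SE 0.083). Col4a5, a type IV chain of kidney and muscle basement membranes, had 0.039, 0.83 and 0.90 in sham and -0.030, -0.19 and 0.030 in OVX, and fell by 0.65 (SE 0.18, adjusted p = 0.00753 by limma). Sham pool 1 lay 0.0026 above the highest of the 9 arrays of ovariectomized rats, while the other 2 sham pools lay well above all of them. The remaining type IV chains did not pass. Col4a4 had 0.087, -0.20 and 0.14 in sham and 0.13, -0.015 and 0.030 in OVX, a difference of 0.040 (SE 0.090, adjusted p = 0.733 by limma), and Col4a6 had 0.064, 0.032 and 0.010 in sham and -0.031, -0.060 and -0.13 in OVX, a difference of -0.11 (SE 0.071, adjusted p = 0.219 by limma). Col7a1, which forms the anchoring fibrils of skin, had 0.15, 0.14 and 0.28 in sham and 0.043, -0.28 and 0.15 in OVX, a difference of -0.22 (SE 0.11, adjusted p = 0.116 by limma), and passed without OVX pool 3 (-0.31, adjusted p = 0.0461 by limma).

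Of 9 endothelial markers 8 rose and 1 fell, with a median of 0.95, against 30.3% of all genes called higher and 28.6% lower. Emcn (endomucin), a sialomucin of bone sinusoids, changed by 2.01 (SE 0.075), and Vwf, the von Willebrand factor of endothelium and megakaryocytes, fell by 1.02 (SE 0.10). The array mean of the list was -0.866 to -0.749 in sham and 0.0050 to 0.043 in OVX, and its part in the basement membrane changes was not tested.

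Of the 4 transmembrane chains 2 rose, 1 fell and 1 did not pass, with a median of 1.01. The share called was 75%, against 58.9% of all genes. Col25a1, a chain known from neurons and from muscle innervation, had -4.05, -4.21 and -4.43 in sham, 0.057, 0.30 and -0.065 in OVX, 0.23, 0.15 and 0.28 in LTBB OVX and 0.30, -0.068 and -0.057 in STBB OVX. Sham lay 3.98 or more below every other array, and the change between OVX and sham was 4.33 (SE 0.12, adjusted p = 3.52e-11 by limma), a 20.1-fold difference and larger than that of any chain outside the cartilage types. After quantile normalization it was 2.45, or 5.48-fold. Col13a1, which is found at neuromuscular junctions and in bone cells, rose by 2.10 (SE 0.12). Col17a1, a hemidesmosome chain of epithelium, had 0.73, 0.64 and 0.10 in sham and -0.012, -0.058 and -0.050 in OVX, and fell by 0.53 (SE 0.14, adjusted p = 0.0051 by limma), though sham pool 3 lay within the range of the 9 arrays of ovariectomized rats. Col23a1 had -0.016, -0.00040 and 0.047 in sham and 0.029, -0.32 and 0.067 in OVX, a difference of -0.085 (SE 0.11, adjusted p = 0.547 by limma). Col26a1, which fits no type above, had 0.052, 0.32 and 0.12 in sham and 0.26, -0.38 and -0.081 in OVX, a difference of -0.23 (SE 0.18, adjusted p = 0.283 by limma).

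The sizes of the changes and the number of calls depended on the scaling of the arrays. When the arrays were quantile normalized again, which makes their spreads equal, the median log2 change of the 28 rises went from 1.81 to 0.719. The change was smaller for 27 of the 28 rises (all but Col20a1) and for the 6 falls. Under that scaling 21 of the 28 rises and 1 of the 6 falls (Col6a6) passed by limma, and no chain that passed changed direction. The sham arrays had the wider spread in this centred table. Making all spreads equal would therefore shrink most differences from sham and widen those among the ovariectomized groups, whatever their origin. The step cannot tell an effect of scaling from a change in the bone.

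Probe sets of 1 chain gave changes of unequal size but of the same sign. Over the 14 chains with several probe sets the median range of the log2 changes was 0.365, and no chain had probe sets of both signs. The widest disagreement was that of Col2a1, with 1.77 (SE 0.12), 4.72 (SE 0.15) and 8.93 (SE 0.24), so its mean of 5.14 depends on which probe sets are averaged. Col1a1 had 0.92 (SE 0.068) and 1.55 (SE 0.089), and Col6a2 had 0.62 (SE 0.14) and 1.49 (SE 0.15).

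**Figure D3:**
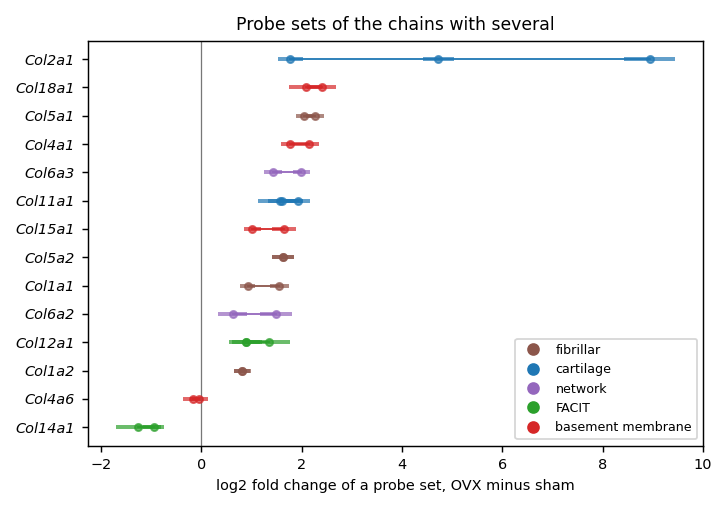
Log2 fold change between OVX and sham of every probe set of the 14 chains with several (horizontal axis), 1 row per chain, with points for single probe sets, thick bars for their 95% intervals and a thin line joining the probe sets of a chain. The points of a chain lie on the same side of 0, with Col2a1 spanning 1.77 to 8.93.

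Chains of 1 molecule were compared in 10 pairs by the exact two-sided permutation test of the difference between the 2 chains, 3 sham against 9 arrays of ovariectomized rats, for which the smallest p is 0.00909. After adjustment over the 10 pairs 6 pairs passed. The test was not run on pairs of other genes, so how often any 2 genes would pass is not known. Of all single genes 27.1% lay above sham in all 9 arrays and 26% below. Col1a1 minus Col1a2 was -0.51 to -0.37 in sham and -0.034 to 0.023 in the other 9 arrays, so that Col1a1 changed by 0.42 more than Col1a2 (exact permutation test, adjusted p = 0.0182). The probe sets of Col1a1 changed by 0.92 and 1.55 between OVX and sham and those of Col1a2 by 0.81 each, so the size of this difference depends on the probe set. Col5a1 changed by 0.49 more than Col5a2, Col6a1 by 0.59 more than Col6a2, and Col9a1 by 4.23 more than Col9a2 (exact permutation test, adjusted p = 0.0182 each). Col11a1 changed by 1.15 less than Col11a2, a value of -1.15 at the same adjusted p (exact permutation test). The difference Col8a1 minus Col8a2 rose by 0.64 (exact permutation test, adjusted p = 0.0303), with Col8a1 changing by 0.0015 and Col8a2 by -0.64. None of the 6 passed when permuted within pool numbers (adjusted exact p = 0.052) or without any 1 sham pool (adjusted exact p = 0.0607 to 0.104), where the smallest exact p that these designs allow is 0.0312 and 0.0364. With only 6 of the 10 pairs at those values, adjustment leaves them above 0.05. These designs therefore could not have passed the 6 alone and cannot decide whether the differences hold. The other 4 pairs did not pass by the same exact permutation test: Col4a1 and Col4a2 differed by 0.11 (adjusted p = 0.182), Col6a1 and Col6a3 by -0.14 (adjusted p = 0.182), Col9a1 and Col9a3 by 0.12 (adjusted p = 0.464), and Col4a5 and Col4a6 by -0.63 (adjusted p = 0.065).

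Equal probe response of the 2 chains was not tested, so a difference between chains is one of measured change on this array and not of protein stoichiometry. With OVX alone against sham, 3 against 3, the exact permutation test cannot go below p = 0.10, and no pair passed. After quantile normalization 4 of the 6 pairs did not pass by the exact permutation test, namely Col5a1 and Col5a2 (0.18), Col11a1 and Col11a2 (-0.38), Col6a1 and Col6a2 (0.25) and Col8a1 and Col8a2 (0.52), and Col9a1 and Col9a2 differed by 1.97 in place of 4.23 (exact permutation test, adjusted p = 0.0455).

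**Figure D4:**
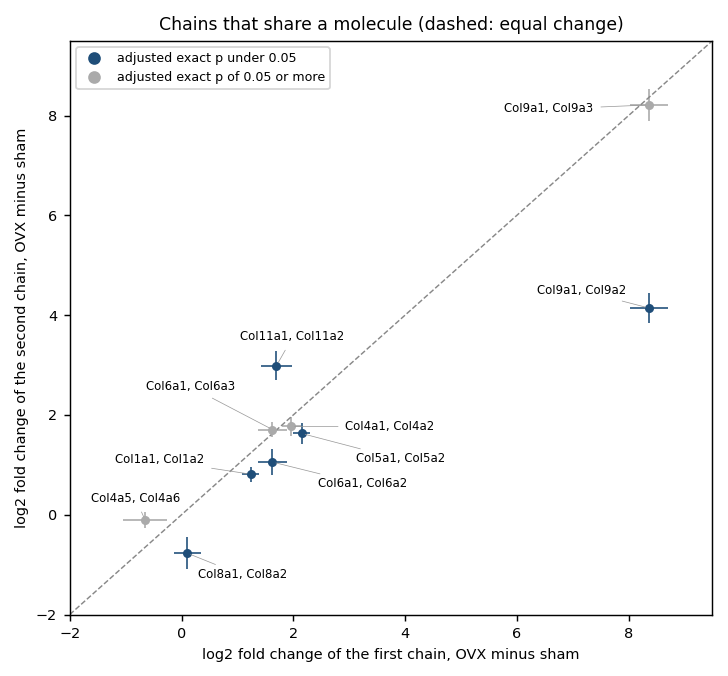
Change of the first chain (horizontal axis) against that of the second (vertical axis) for the 10 pairs of chains, log2 OVX minus sham with 95% intervals, the dashed line marking equal change, and the colour giving the exact permutation call over sham against all 9 arrays of ovariectomized rats. Col9a1 and Col9a3 lie near the line and Col9a2 lies 4.22 below Col9a1.

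Against the same sham arrays LTBB OVX bone had 27 chains higher, 7 lower and 7 not passed (median 1.28), with 29.2% of all genes called higher and 29.1% lower. STBB OVX bone had 28 higher, 6 lower and 7 not passed (median 1.34), with 29.3% and 29% of all genes. These comparisons and that of OVX share the sham arrays. By limma 27 chains were called higher and 6 lower in all 3 comparisons. The share of all genes called in the same direction in all 3 was not counted, so these counts have no background. In STBB OVX the fall of Col8a2 (-0.37, adjusted p = 0.0499) and the rise of Col20a1 (0.24, adjusted p = 0.0435) lay close to the threshold, and the count of lower chains was 5 in 14 of 22 alternatives. Col5a3, at 0.33 in OVX and 0.37 (adjusted p = 0.0123) in STBB OVX, did not pass in LTBB OVX (0.27, adjusted p = 0.0576). Col7a1 was called lower in LTBB OVX (-0.34, adjusted p = 0.0178) and not in OVX (-0.22) or STBB OVX (-0.26, adjusted p = 0.065). The other 6 chains passed in none of the 3, namely Col19a1, Col23a1, Col26a1, Col4a4, Col4a6 and Col8a1.

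Between LTBB OVX and OVX, STBB OVX and OVX, and STBB OVX and LTBB OVX limma called 0 of the 41 chains, as it called 0% of all genes. At an unadjusted p under 0.05 there were 1, 6 and 5 chains, against 2.31%, 2.89% and 3.4% of all genes. The median over the chains was -0.017, 0.033 and 0.055. The type I chains hardly moved: Col1a1 differed from OVX by 0.0019 (95% interval -0.146 to 0.149) in LTBB OVX and by -0.0019 (-0.149 to 0.146) in STBB OVX, and Col1a2 by 0.014 and -0.0017. These intervals use 1 spread shared by the 4 groups, sham included. The SD of Col1a1 was 0.132 in sham and 0.0053, 0.010 and 0.014 in OVX, LTBB OVX and STBB OVX, so its intervals are wider than those pools alone would give. In fits of only the 2 groups compared, limma called 40 of all genes for STBB OVX against OVX and 0 for each of the other comparisons between diets.

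The 8 cartilage chains included the largest difference between the BB diets, that of Col9a1. Of the 8, 7 were above 0 in STBB OVX minus LTBB OVX (median 0.335) and all 8 in STBB OVX minus OVX (median 0.231), and 4 were below an unadjusted p of 0.05 in each, with none passing adjustment. The type IX chains had the lowest p values between the BB diets. The STBB OVX values of Col9a1 were 0.83, 0.35 and 0.34, above the LTBB OVX values of -0.27, 0.023 and -0.023, and OVX had 0.39, -0.070 and 0.042. The STBB OVX values of Col9a2 were 0.75, 0.46 and 0.27, above the LTBB OVX values of -0.15, 0.0029 and -0.0029, and OVX had 0.38, -0.16 and 0.20. The STBB OVX values of Col9a3 were 0.69, 0.34 and 0.25, above the LTBB OVX values of -0.18, -0.013 and 0.013, and OVX had 0.18, -0.16 and 0.11. For these 3 chains the STBB OVX arrays lay above all LTBB OVX arrays, and for Col9a3 also above all OVX arrays. The differences between the BB diets were 0.60 (SE 0.16, unadjusted p = 0.00261 by limma) for Col9a1, 0.54 (SE 0.14, unadjusted p = 0.00192) for Col9a2 and 0.49 (SE 0.15, unadjusted p = 0.00685) for Col9a3, each with an adjusted p of 1. Over the 22 alternatives the lowest adjusted p was 0.184, 0.223 and 0.154. Without STBB OVX pool 1, the array with the highest values, the differences were 0.44, 0.41 and 0.36 for Col9a1, Col9a2 and Col9a3, and after quantile normalization they were 1.31, 1.22 and 1.09.

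In all, 7 chains had every STBB OVX array above every LTBB OVX array, 17.1%, against 5.3% of all genes, and no chain had every array below, against 5.63%. Between STBB OVX and OVX 1 chain had every array above and 1 every array below (4.26% and 5.13% of all genes), and between LTBB OVX and OVX 4 and 1 (3.93% and 4.77%). The 7 were Col27a1, Col4a2, Col4a4, Col8a2, Col9a1, Col9a2 and Col9a3, named because of these values. Cartilage markers other than collagens moved with the chains: 9 of 10 were above 0 in STBB OVX minus LTBB OVX (median 0.536, none passing), and the array mean of the list was 0.18 to 0.637 in STBB OVX, while LTBB OVX had -0.139 to 0.014 and OVX had -0.090 to 0.322. The muscle markers differed as well, with a median of 1.08 between the BB diets and an array mean of -0.149 to 0.582 in STBB OVX, against -2.29 to 0.573 in LTBB OVX. Their part in the cartilage chain values was not tested.

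Over all chains the lowest p between STBB OVX and OVX was that of Col8a2, which read -0.035, 0.28 and 0.11 in STBB OVX, against OVX values of -0.61, 0.035 and -0.30, a difference of 0.40 (SE 0.15, unadjusted p = 0.0182 by limma) that was 0.25 without OVX pool 1 and 0.81 after quantile normalization. Col20a1 (-0.24, unadjusted p = 0.0223 by limma) and Col9a3 (0.39, unadjusted p = 0.0242 by limma) followed. The groups overlapped for Col8a2 and not for Col20a1 or Col9a3, with every array of Col20a1 lower in STBB OVX. Between LTBB OVX and OVX the lowest p was that of Col4a4, with -0.28, -0.068 and -0.18 against 0.13, -0.015 and 0.030, a difference of -0.22 (SE 0.090, unadjusted p = 0.0282 by limma), then Col11a1 (0.23, unadjusted p = 0.086 by limma) and Col4a6 (0.11, unadjusted p = 0.158 by limma). No chain passed adjustment in any of these comparisons, and the 95% intervals for all chains ran from -0.557 to 0.501 in LTBB OVX minus OVX and from -0.445 to 0.737 in STBB OVX minus OVX.

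**Figure D5:**
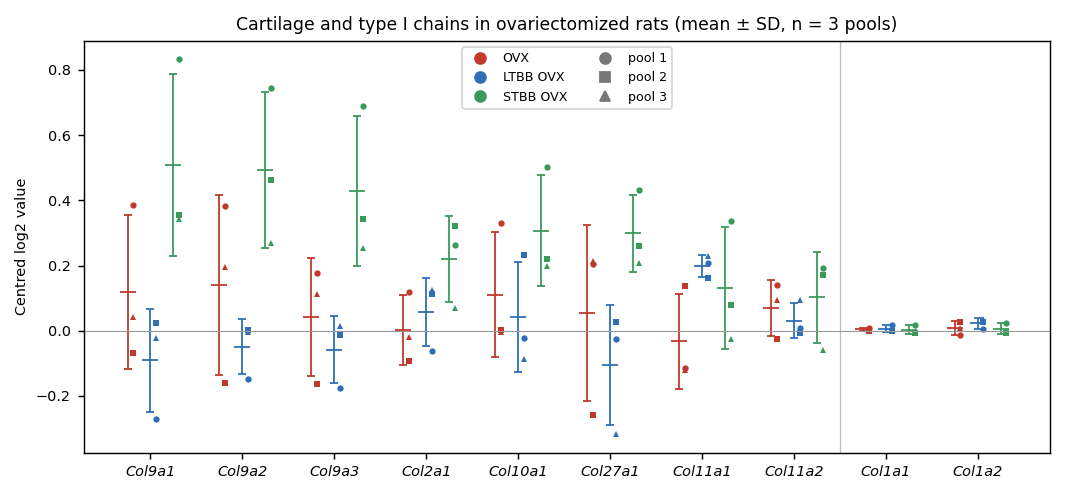
Centred log2 values (vertical axis) of the 8 cartilage chains and the type I chains in the OVX, LTBB OVX and STBB OVX arrays, with single pools as points beside the group mean and its SD (n = 3 pools). For Col9a1 the 3 STBB OVX arrays lie at 0.83, 0.35 and 0.34 and the LTBB OVX arrays at -0.27, 0.023 and -0.023.

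Genes that act on collagen moved with the chains in OVX bone, without a set test. Among all genes 30.3% were called higher and 28.6% lower. Of 24 measured genes of chain modification and crosslinking 22 rose, 1 fell and 1 did not pass (median 1.78). Fkbp10, a prolyl isomerase chaperone of type I procollagen, changed by 2.96 (SE 0.070), Pcolce, which enhances the cleavage of procollagen ends, by 2.77 (SE 0.066), and Bmp1, the protease that makes this cut, by 2.63 (SE 0.085). The exception that fell was P4ha3, a prolyl hydroxylase subunit (-0.48, SE 0.18, adjusted p = 0.0353 by limma), and Crtap, of the prolyl 3-hydroxylase complex, was at -0.12 (SE 0.11, adjusted p = 0.352 by limma). Collagen receptors gave 5 higher, 1 lower and 1 not passed of 7 (median 0.934), among them Ddr2, a tyrosine kinase that binds fibrillar collagen (1.62, SE 0.068), and the integrin alpha chains Itga11 (1.56, SE 0.075) and Itga1 (1.55, SE 0.10). Adgrg1, an adhesion receptor that binds type III collagen, fell by 0.47 (SE 0.10), and Ddr1 was at -0.031 (SE 0.089, adjusted p = 0.792 by limma).

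Of 9 collagen-degrading enzymes 7 rose, 1 fell and 1 did not pass (median 2.24). Ctsk, the osteoclast protease of bone collagen, which is also among the osteoclast markers, changed by 3.81 (SE 0.15), Mmp9 (gelatinase B) by 3.43 (SE 0.14) and Mmp13, a collagenase of osteoblasts and hypertrophic chondrocytes, by 3.25 (SE 0.098). Mmp8, the neutrophil collagenase, fell by 3.16 (SE 0.22), and is itself 1 of the 4 neutrophil markers that fell. Proteins with a collagen-like stretch that are not collagens split more evenly, with 11 higher, 5 lower and 12 not passed of 28 (median 0.093). Of this list 57.1% were called, close to the 58.9% of all genes. Colec12, a scavenger receptor, changed by 2.86 (SE 0.10), Cthrc1, a secreted protein of matrix-forming cells, by 2.76 (SE 0.12) and Emilin1, an elastic fibre glycoprotein, by 2.49 (SE 0.079). C1qtnf3 fell by 2.10 (SE 0.20), and the ficolins Fcnb and Fcna, innate immune lectins, fell by 2.0 (SE 0.25) and 1.45 (SE 0.25).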

How the data were processed

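The authors deposited log2 values of 12 arrays, made by robust multiarray analysis and then normalized per chip and per gene in GeneSpring. GCOS and RMA are listed in the submitters' notes, without versions. The centred table used here holds no intensities, so neither a level nor a filter on dim probe sets was taken from it.

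Of 31099 probe sets 57 controls were left out. A gene was the mean of the probe sets with its symbol alone (20826 with 1 symbol, 436 with several and 9780 with none), and symbols of 20758 were looked up by gene ID. All 14217 genes were fitted with limma 3.58.1 in R 4.3.3 as 4 group means with 6 contrasts and Benjamini-Hochberg adjustment at 0.05. Chain pairs used the exact permutation test in scipy 1.17.1. The fit was tested on simulated data. The collagen types, marker and gene lists, and the members were chosen with earlier results of these data known, and so were the alternatives. Full statistics were given, by rule, to the type I chains, the largest rise and fall of each type, every chain that fell or did not pass and the 3 lowest p in each diet comparison, and up to 3 genes of a list with the largest OVX changes. The pool numbers did not pair arrays, since deviations from group means correlated at -0.376 to 0.232 for the same number and at -0.234 to 0.381 for different ones. The number of arrays limits the precision. A limma p-value sets a difference against the spread between pools, taken over the 4 groups together, and not against that between single rats. No batch is named in the labels.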

Additional observations from a re-analysis of the deposited data

How the results depend on the processing

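Counts of chains higher than sham moved by under 1.5 times in every alternative. Counts lower moved: 6 in OVX became 1 after quantile normalization and 1 with a muscle index as a covariate, 7 in LTBB OVX became 1, 2 and, with a fold of at least 1.5, 4, and 6 in STBB OVX became 0 and, with that fold, 3. The index does not overlap between sham and OVX, so index and group cannot be told apart there. Over all genes the OVX calls went from 8367 to 3010 and 2894. Leaving out 1 array gave 27 to 28 higher and 6 to 7 lower for OVX, 27 to 28 and 5 to 7 for LTBB OVX, and 26 to 28 and 5 to 7 for STBB OVX, and 0 for the diets.

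Under the replicate block, which permutes within pool numbers (smallest p 0.0312), the 6 pairs that had passed had an adjusted exact p of 0.052 at 0.42, 0.49, -1.15, 0.59, 0.64 and 4.23 (Col1a1 and Col1a2, Col5a1 and Col5a2, Col11a1 and Col11a2, Col6a1 and Col6a2, Col8a1 and Col8a2, Col9a1 and Col9a2). With only 6 of the 10 pairs at that smallest p, adjustment leaves it above 0.05, so the block could not have passed the 6 alone. The block changed no count of chains by over 1.5 times. With OVX alone the pairs in that order were 0.42, 0.52, -1.29, 0.57, 0.87 and 4.22, adjusted exact p = 0.143. After quantile normalization 4 of them did not pass, at 0.18 (Col5a1), -0.38 (Col11a1), 0.25 (Col6a1 and Col6a2) and 0.52 (Col8a1), and Col6a1 minus Col6a3 turned to 0.014. With 1 probe set per gene Col4a1 minus Col4a2 (0.32) and Col6a1 minus Col6a3 (-0.42) passed and Col6a1 minus Col6a2 (0.19) did not. Leaving out 1 array, the ranges were 0.38 to 0.45, 0.42 to 0.60, -1.23 to -1.10, 0.46 to 0.69, 0.55 to 0.73 and 4.09 to 4.41 for the 6 pairs, without any sham pool none passed (adjusted exact p = 0.0607 to 0.104), and Col9a1 minus Col9a3 ran from -0.12 to 0.40, below 0 without sham pool 3.

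Chains that had not passed changed sign: Col19a1 was -0.10 with the muscle index, -0.067 without sham pool 1 and -0.13 without OVX pool 1 (-0.13 to 0.14 without 1 array), Col23a1 was 0.038 without OVX pool 2 (-0.16 to 0.038), and Col4a4 was -0.043 with the index, -0.063 without sham pool 2 and -0.0020 without OVX pool 1 (-0.063 to 0.10). The cause was not tested. A fit of the ovariectomized rats alone was added after seeing the data and called no chain between diets.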
